A study of Mus musculus with 6 samples.

Results

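The acute phase protein genes examined in these mouse livers were Saa1, Saa2, Saa3, Saa4, Lcn2, Hp, Hpx, Orm1, Orm2 and Crp, 10 of the 26608 gene symbols in the count table. Each symbol matched 1 row, and all 10 were among the 13537 genes that passed the filter on low counts. They were selected by symbol with earlier results on these same libraries in view, the levels and the spread between mice included. Their levels, spread and genotype differences are therefore a description, and nothing is supported with them. RNA came from the livers of 6 mice aged 6 weeks, with 3 LiK and 3 LiKM animals. The labels do not explain these codes. From what is known of the published study, LiKM hepatocytes differ from those of LiK in lacking Mdm2. The sources used here do not give the driver of the recombination, the sex or the strain of the mice.

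Acute phase proteins are made mostly by hepatocytes and released into blood when tissue is injured or infected. Interleukin 6 and related cytokines act on their genes through the receptor chain Il6st and the transcription factor STAT3. Interleukin 1 and tumour necrosis factor act through NF-kB, and C/EBP factors act alongside both. In mice the serum amyloid A proteins are among the most inducible, haptoglobin, haemopexin and orosomucoid respond more moderately, and C-reactive protein, a major acute phase protein of humans, responds little.

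Library totals lay between 19909993 and 24874343 counts, with 16847 to 17472 genes detected. Alb, for albumin, the defining product of hepatocytes, stood at 80638 to 103215 CPM (counts put on 1 library size after TMM scaling) in the 6 libraries. Mdm2, whose gene-level count does not show a deletion within the gene, was at 28.8, 29.0 and 28.6 CPM in LiK and at 122, 125 and 60.5 CPM in LiKM. Libraries are written by genotype and the mouse number in their title, as in LiK 1.

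The stretches just before the transcription start of 4 of the genes are shown because the levels of these genes contrast most. Saa1 and Saa2 are close copies with a very wide spread between LiK mice, Saa3 is a more distant copy, and Crp had the narrowest spread of the 10. Each stretch is the 250 bases before the start in RefSeq for GRCm38.p6, written 5′ to 3′ on the gene's own strand. They lie at chr7:46742981-46743230 (minus strand), chr7:46751583-46751832 (plus strand), chr7:46715677-46715926 (minus strand) and chr1:172697806-172698055 (plus strand). Capitals mark matches to the C/EBP pattern TTNNGNAA on either strand.
Saa1: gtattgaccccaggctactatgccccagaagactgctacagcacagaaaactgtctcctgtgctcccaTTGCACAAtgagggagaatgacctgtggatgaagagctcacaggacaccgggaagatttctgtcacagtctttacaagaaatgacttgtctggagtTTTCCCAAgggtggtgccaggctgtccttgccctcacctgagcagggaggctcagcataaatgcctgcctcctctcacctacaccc
Saa2: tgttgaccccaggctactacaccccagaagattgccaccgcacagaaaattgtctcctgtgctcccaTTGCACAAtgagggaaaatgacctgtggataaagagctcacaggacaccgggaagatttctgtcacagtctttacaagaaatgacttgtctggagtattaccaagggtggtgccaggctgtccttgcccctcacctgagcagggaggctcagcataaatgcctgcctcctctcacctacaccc
Saa3: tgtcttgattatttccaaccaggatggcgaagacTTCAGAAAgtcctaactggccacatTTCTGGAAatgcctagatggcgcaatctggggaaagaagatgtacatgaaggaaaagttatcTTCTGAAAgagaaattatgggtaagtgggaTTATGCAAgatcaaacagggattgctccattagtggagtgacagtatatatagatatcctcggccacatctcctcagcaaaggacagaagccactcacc
Crp: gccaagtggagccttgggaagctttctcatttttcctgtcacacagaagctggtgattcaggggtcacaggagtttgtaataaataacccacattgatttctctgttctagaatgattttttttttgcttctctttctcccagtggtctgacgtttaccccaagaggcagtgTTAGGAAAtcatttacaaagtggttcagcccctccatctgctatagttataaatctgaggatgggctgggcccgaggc
RefSeq windows were matched for 8 of the 10 genes, all but Hp and Orm1. In a global alignment the Saa1 and Saa2 stretches were identical at 94.8% of 251 columns, against 48.9% of 284 columns for Saa1 and Saa3. The pattern TTNNGNAA was present in all 8 stretches, with 4 matches in Saa3, 2 each in Saa1, Saa4, Hpx and Orm2, and 1 each in Saa2, Lcn2 and Crp. It was also present in 36.8% of the 32851 RefSeq stretches of the same length. The STAT pattern TTCNNNGAA and the NF-kB consensus matched 0 of the 8 stretches on either strand, against 7.02% and 5% of all stretches. A match describes letters in this window and is no evidence of binding, and its absence says nothing about the factor.

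All of these genes but Crp were high in LiK 1 and LiK 2 and low in LiK 3. In those 9 genes LiK 1 and LiK 2 were the highest 2 of the 6 libraries, an order found in 12.4% of all genes tested. LiK 3 was the lowest library for 8 of the 10, all but Saa4 and Crp, and for 14.3% of all genes. Summed over the 10 genes, LiK 1 held 39478 CPM, LiK 2 held 41867 CPM and LiK 3 held 8904 CPM. The LiKM libraries held 14563, 10483 and 14304 CPM. In summed level LiK 3 thus lay below every LiKM library, while LiK 1 and LiK 2 lay above every one. For each of the 10 genes the genotypes overlapped, whereas LiKM lay wholly above LiK in 17.8% and wholly below it in 11.8% of all genes tested. The mouse codes in the titles of LiK 1 and LiK 2 are lower than those of all the other mice. The labels do not say what the codes stand for, and whether they go with this order was not tested. In bulk tissue, fewer cells of a type and less RNA per cell cannot be told apart. The plot of the levels by mouse shows the order.

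**Figure D1:**
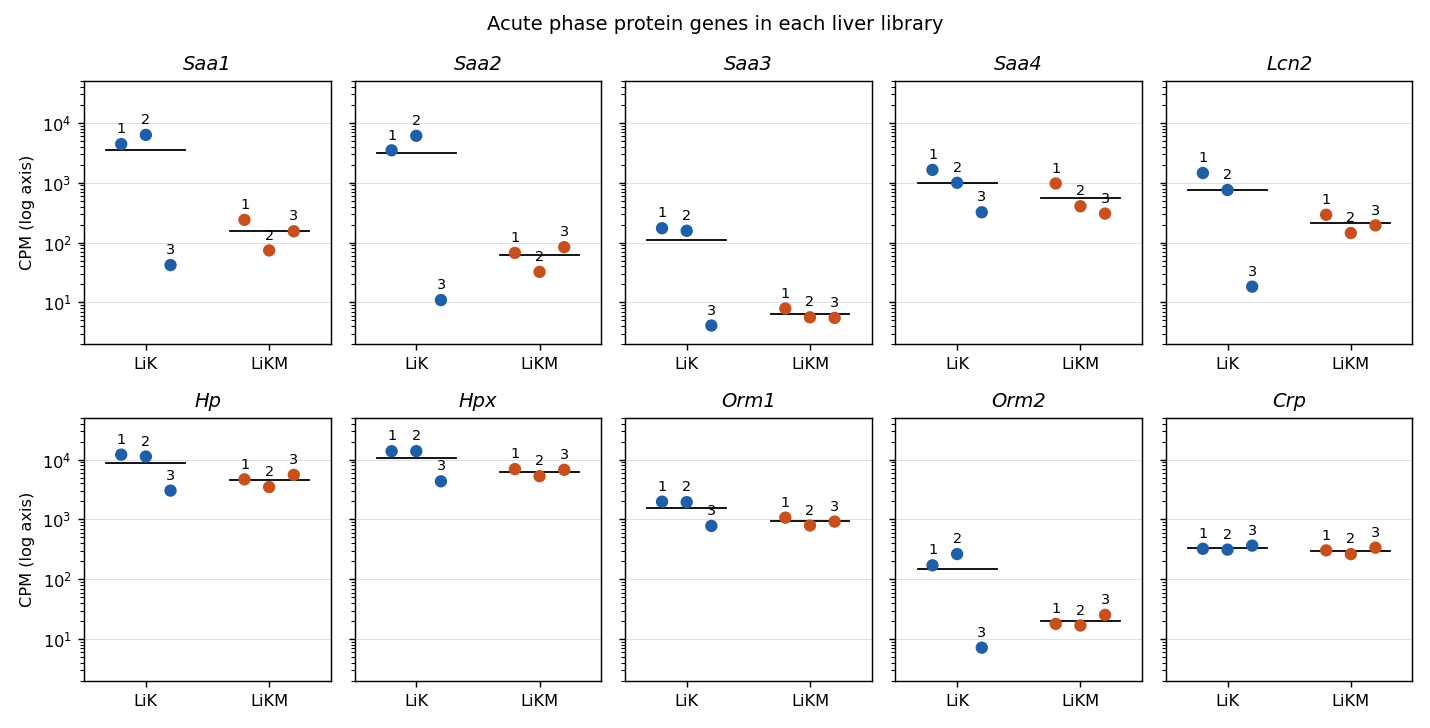
CPM on a log axis for the 10 acute phase protein genes in each of 6 libraries, with LiK in blue and LiKM in orange, mouse numbers beside the points and the group mean as a bar. LiK 1 and LiK 2 stand above the other libraries in every panel but Crp, and LiK 3 is the lowest point in 8 panels.

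Saa1 encodes a serum amyloid A protein that travels on high-density lipoprotein. It was at 4421, 6292 and 42.0 CPM in LiK and at 239, 73.9 and 154 CPM in LiKM. The highest LiK mouse had 149.7 times the level of the lowest, against 3.24 times among LiKM mice. Saa2, its close copy, was at 3473, 6076 and 10.9 CPM in LiK and at 67.1, 32.4 and 83.7 CPM in LiKM. That is a 557-fold range among LiK mice and a 2.59-fold range among LiKM mice. LiK 3 was the lowest library for both genes, at −1.73 log2 units relative to the LiKM mean for Saa1 and −2.37 for Saa2.

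Reads of Saa1 and Saa2 may be shared in part. Of the 50-base windows of the longest coding Saa1 transcript in GENCODE M21, 13.2% occur in Saa2, and of the 100-base windows 0% do. The sources used here do not give the read length. Saa1 had 1.27 and 1.04 times the counts of Saa2 in LiK 1 and LiK 2, 3.85 times in LiK 3, and 3.57, 2.28 and 1.84 times in LiKM 1, 2 and 3. The counts of the pair were thus nearest to each other in the libraries where both were high. Summed, the pair stood at 7895 and 12368 CPM in LiK 1 and LiK 2, at 52.9 CPM in LiK 3 and between 106 and 306 CPM in LiKM.

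Saa3, an amyloid A form also made by macrophages and fat cells, was at 174, 157 and 4.10 CPM in LiK and at 7.89, 5.63 and 5.50 CPM in LiKM. The LiKM mice lay within 1.44-fold of each other, and LiK 3 lay below all of them. Saa4, the form made without stimulation, had a smaller range. It was at 1637, 996 and 320.4 CPM in LiK and at 971, 404 and 305 CPM in LiKM. LiKM 1 nearly reached LiK 2, and LiKM 3 was the lowest library. Among LiK mice Saa4 spanned 5.11-fold, the least of the 4 Saa genes, and Saa3 spanned 42.3-fold.

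Lcn2 encodes lipocalin 2, which binds bacterial siderophores and is held in neutrophil granules as well as being made by hepatocytes. It was at 1451, 755 and 18.3 CPM in LiK and at 291, 144 and 194 CPM in LiKM. LiK 3 lay far below every LiKM library. The range was 79.1-fold in LiK and 2.02-fold in LiKM. Relative to the LiKM mean, LiK 3 stood at −3.45 log2 units for Lcn2, the lowest such value of the 10 genes, against −0.60 for Saa3.

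Hp and Hpx encode haptoglobin and haemopexin, which bind free haemoglobin and free haem. Hp was at 12079, 11241 and 3029 CPM in LiK and at 4668, 3475 and 5545 CPM in LiKM. Hpx was at 13770.3, 13830.3 and 4330.0 CPM in LiK and at 6926, 5276 and 6736 CPM in LiKM. Both genes had the order of the Saa genes at a smaller range, 3.99-fold for Hp and 3.19-fold for Hpx among LiK mice. The LiKM mice lay within 1.60-fold and 1.31-fold of each other.

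Orm1 and Orm2 encode orosomucoids, plasma glycoproteins that carry drugs and other small molecules. Orm1 was at 1979, 1943 and 778 CPM in LiK and at 1071, 792 and 919 CPM in LiKM, so that LiK 3 lay just below LiKM 2. Orm2 was at 171, 264 and 7.18 CPM in LiK and at 18.0, 16.9 and 25.4 CPM in LiKM. These related copies thus differed in range, with 2.54-fold for Orm1 and 36.7-fold for Orm2 among LiK mice. Of the 50-base windows of Orm1, 20.4% occur in Orm2, so reads may have been shared between them. Orm1 had 11.6 and 7.37 times the counts of Orm2 in LiK 1 and LiK 2 and 108 times in LiK 3. Orm3, a further copy outside the 10 genes, was at 37.6, 17.0 and 2.26 CPM in LiK and at 26.1, 20.4 and 6.70 CPM in LiKM, with LiK 3 again the lowest library.

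Crp, which encodes C-reactive protein, stood apart from the other 9 genes. It was at 323, 313 and 365 CPM in LiK and at 304, 263 and 337 CPM in LiKM. LiK 3, the lowest library for 8 of the others, was the highest for Crp. The range was 1.17-fold among LiK mice and 1.28-fold among LiKM mice.

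Levels per kilobase of the longest coding transcript in GENCODE M21 allow the genes to be ordered, although the sources used here do not give the authors' annotation. In LiKM the highest mean CPM per kilobase were those of Hpx at 4211 ± 602, Hp at 3392 ± 772 and Orm1 at 1196 ± 181 (SD, n = 3). Saa4 at 267 ± 172, Saa1 at 256 ± 136, Lcn2 at 229 ± 81.9, Crp at 178 ± 22.0 and Saa2 at 93.7 ± 40.2 followed. Orm2 at 25.9 ± 5.96 and Saa3 at 2.88 ± 0.613 were lowest. The intervals of 1 SD around the means of Hpx and Hp overlapped, as did those of Saa4, Saa1, Lcn2 and Crp, and that of Saa2 reached those of Saa4 and Saa1. In LiK 2, Saa1 at 10332 and Saa2 at 9318 CPM per kilobase led the list, ahead of Hpx at 9226 and Hp at 8358. In LiK 3 the same genes stood at 69.0, 16.8, 2889 and 2252 CPM per kilobase. The order depends on the length used. Over the merged exons of all transcripts, retained introns included, LiK 2 had 9226 CPM per kilobase for Hpx and 6999.6 for Hp, ahead of 2539 for Saa1 and 2413 for Saa2.

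The spread within LiK was among the widest of all genes. On log2 CPM the SD over the 3 LiK mice was 5.04 for Saa2, 4.03 for Saa1, 3.40 for Lcn2, 3.06 for Saa3 and 2.83 for Orm2. These ranked 2, 4, 8, 9 and 11 among 13537 genes, whose median was 0.20. Saa4 (1.21), Hp (1.12), Hpx (0.97) and Orm1 (0.77) had smaller SDs, and that of Crp (0.12) lay below the median. Over the LiKM mice the SDs of the 10 genes ran from 0.18 for Crp to 0.87 for Saa4, against a median of 0.21 for all genes. The median over the 10 genes was 2.02 in LiK and 0.33 in LiKM.

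**Figure D2:**
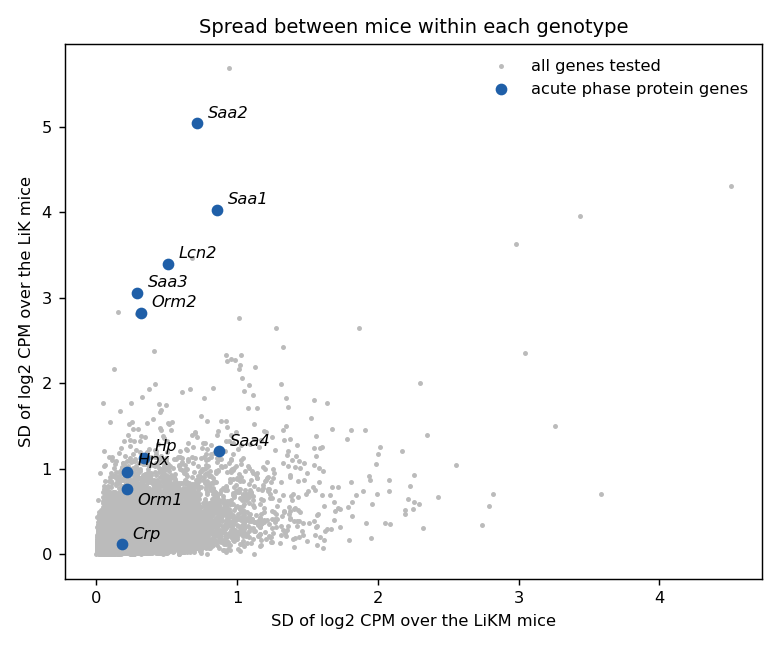
SD of log2 CPM over the 3 LiK mice (vertical axis) against that over the 3 LiKM mice (horizontal axis), with all 13537 tested genes in grey and the 10 acute phase protein genes in blue and named. Saa2, Saa1, Lcn2, Saa3 and Orm2 lie far up near the left edge, with SDs of 2.83 to 5.04 in LiK and of 0.29 to 0.86 in LiKM.

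Between the genotypes, each of the 10 genes had a lower mean in LiKM than in LiK. The log2 fold changes (LiKM minus LiK) in a fit over all genes were −5.71 (SE 1.72) for Saa2, −4.52 (SE 1.44) for Saa1, −4.14 (SE 1.13) for Saa3, −2.87 (SE 1.01) for Orm2 and −1.82 (SE 1.13) for Lcn2. The other 5 lay between −0.95 (Hp, SE 0.49) and −0.15 (Crp, SE 0.13). Of the 10 genes, 0 were called higher and 0 lower by edgeR's quasi-likelihood test at a Benjamini-Hochberg adjusted p under 0.05, beside 5.11% and 0.813% of all genes tested. At an unadjusted p under 0.05 there were 4 (Saa1, Saa2, Saa3 and Orm2), beside 22.4% of all genes. DESeq2's Wald test called 3 lower (Saa1, Saa2 and Saa3) and 0 higher, beside 2.46% and 7.96% of the genes it adjusted. The median over the 10 was −1.38, beside 0 over all genes. Nothing is read from these counts, since the same contrast was in view when the genes were chosen.

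The number of calls turned on a single library. Without LiK 3, the edgeR test called 7 of the 10 genes lower in LiKM, beside 0.341% of all genes tested in that fit, and those not called were Saa4, Hpx and Crp. The log2 fold change was then −5.11 (SE 0.51) for Saa1, −4.71 (SE 0.19) for Saa3, −2.40 (SE 0.38) for Lcn2 and −1.08 (SE 0.17) for Orm1. Leaving out any other library gave 0 calls among the 10. Without LiK 1 the log2 fold change of Lcn2 was −0.89 and that of Saa4 −0.24.

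**Figure D3:**
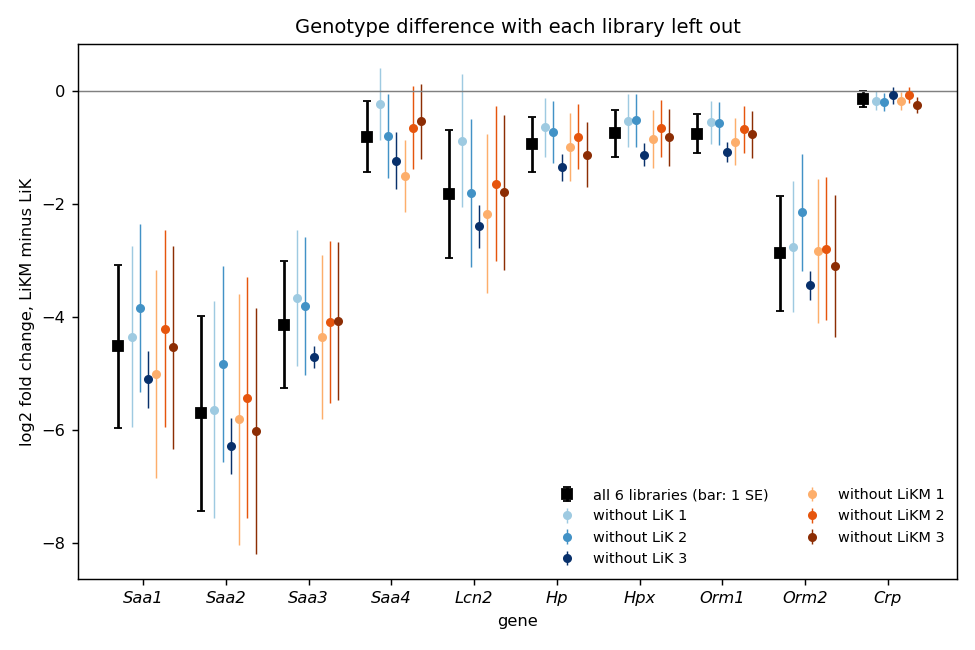
Log2 fold change (LiKM minus LiK) of each of the 10 genes with all 6 libraries (black squares) and with each library left out in turn (coloured points), with bars of 1 SE. The bars shorten without LiK 3, where Saa1 has an SE of 0.51 in place of 1.44.

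Of 28 other genes broadly listed here as rising in an acute phase response, 2 were called higher and 0 lower in LiKM, beside 5.11% and 0.813% of all genes tested. Not every one of them is an established acute phase gene of mice. Mbl2, a mannose-binding lectin that activates complement, rose from 203, 194 and 297 to 514, 573 and 571 CPM (log2 fold change 1.25, SE 0.18, edgeR adjusted p = 0.0197). Serpina3g, a serine protease inhibitor, rose from 6.31, 3.72 and 7.72 to 14.2, 16.3 and 17.2 CPM (log2 fold change 1.42, SE 0.26, edgeR adjusted p = 0.0284). The LiKM libraries lay above every LiK library for both genes. Both calls were lost without LiK 1, LiK 2 or LiKM 2, and that of Serpina3g also without LiKM 1 or LiKM 3. Calls over all genes fell in the same fits, from 692 higher to 26, 18 and 44 without LiK 1, LiK 2 and LiKM 2. Without LiKM 1 and LiKM 3 they were 308 and 525. Over the 28 genes the log2 fold changes had a median of −0.24, beside 0 over all genes.

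Part of these 28 genes had the order of the Saa genes. LiK 1 and LiK 2 were the highest 2 libraries for 9 (32.1%, beside 12.4% of all genes), namely Apcs, Fgl1, Cp, Itih3, Itih4, C4b, Cfb, Lrg1 and Pzp. LiK 3 was the lowest library for 13, beside 14.3% of all genes. Apcs, which encodes serum amyloid P, a pentraxin like C-reactive protein, was at 305, 374 and 102 CPM in LiK and at 124, 82.0 and 152 CPM in LiKM. Unlike Crp, it was thus high in LiK 1 and LiK 2. Its log2 fold change was −1.12 (SE 0.46) and was not called, but without LiK 3 it was −1.51 and called (edgeR adjusted p = 0.048).

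The fibrinogen genes had another order, with LiKM 3 highest. Fga, for the alpha chain of fibrinogen, was at 5528, 4712 and 4414 CPM in LiK and at 4288, 3639 and 8925 CPM in LiKM. Fgb and Fgg, for the other chains, were also highest in LiKM 3, at 6227 and 6963 CPM. Lbp, for the lipopolysaccharide-binding protein, was at 136, 119 and 85.2 CPM in LiK and at 96.9, 87.3 and 232 CPM in LiKM. LiKM 3 was the highest library for 9 of these 28 genes and for 0 of the 10 acute phase protein genes, beside 22.9% of all genes. The heat map of the 28 genes shows both orders.

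**Figure D4:**
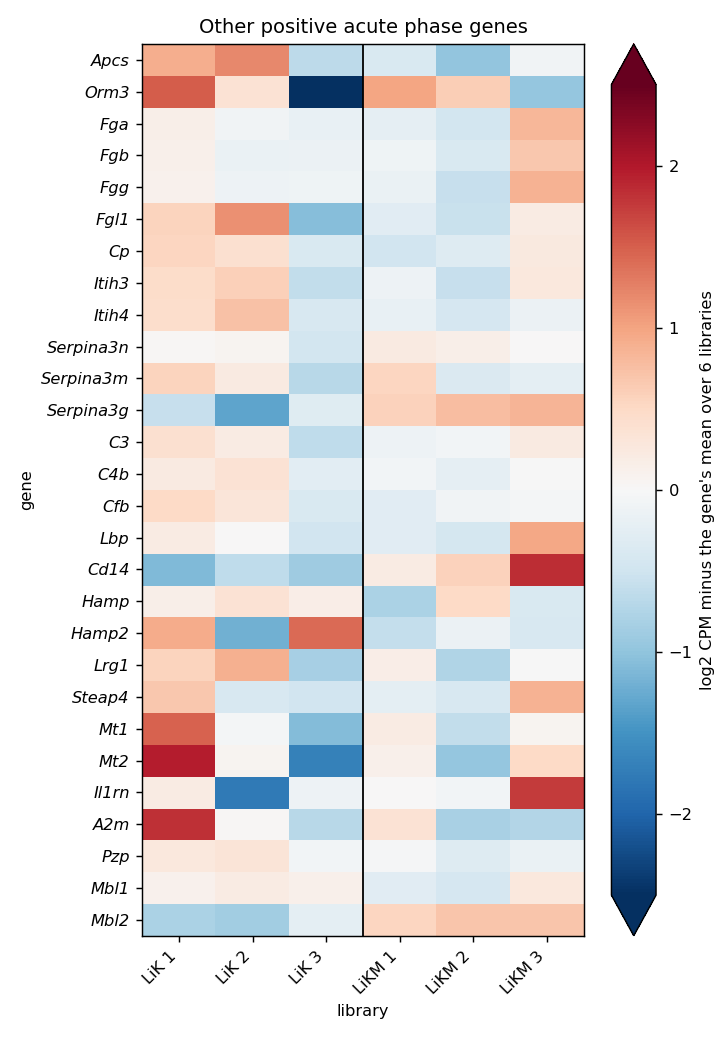
Log2 CPM of 28 other positive acute phase genes (rows) in 6 libraries (columns), each minus the gene's mean over the libraries, with red above and blue below it. Apcs, Fgl1 and Itih4 are red in LiK 1 and LiK 2, while Fga, Fgb, Fgg and Lbp are reddest in LiKM 3.

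Of 12 genes known to fall in an acute phase response, 0 were called in either direction by edgeR or DESeq2. Over all genes edgeR called 5.11% higher and 0.813% lower. An unadjusted p under 0.05 was found for 1, beside 22.4% of all genes. In 3 of the 12 LiKM lay wholly below LiK and in 0 wholly above, beside 11.8% and 17.8% of all genes. Alb was at 90131, 80638 and 101784 CPM in LiK and at 103215, 91378 and 96895 CPM in LiKM. Trf, for the iron carrier transferrin, was at 30167, 27877 and 19316 CPM in LiK and at 23534, 22853 and 25708 CPM in LiKM. LiK 2 was the lowest library for Alb, and LiK 3 the lowest for Trf. The median SD of log2 CPM over this list was 0.16 in each genotype, and its median log2 fold change was −0.08. Single members spread more, and Serpina7, for a carrier of thyroid hormone, spanned 5.98-fold among LiK mice and 3.80-fold among LiKM mice.

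Cytokines that induce acute phase genes were scarce in all 6 libraries. Of 14 listed, 5 passed the filter on low counts, and of these 2 were called higher and 0 lower. Both were so scarce in LiK that they passed that filter only through their LiKM counts, so no share is read from the 5. Lif, an interleukin 6 type cytokine, rose from 0.0482, 0.201 and 0.0821 to 2.82, 3.04 and 2.46 CPM (log2 fold change 4.61, SE 0.43, edgeR adjusted p = 0.007). It had 1, 4 and 2 counts in the LiK libraries, so the size of the fitted change rests on very few LiK counts. Clcf1, of the same type, rose from 0.482, 0.352 and 0.616 to 1.60, 1.27 and 2.84 CPM (log2 fold change 1.95, SE 0.42, edgeR adjusted p = 0.0416), a call lost whichever library was left out. Il1b was at 0.385, 0.856 and 1.23 CPM in LiK and at 1.46, 2.09 and 11.5 CPM in LiKM and was not called. Its highest level was that of LiKM 3. Il6 counted 0, 0 and 0 in the LiK libraries and 1, 0 and 8 in the LiKM libraries, and Tnf counted 2, 0 and 0 and 8, 4 and 14. Lif, Clcf1, Il1b, Il6 and Tnf were each highest in a LiKM library, as were Il1a, Osm, Il17a and Csf3. Ctf1 and Cntf were instead highest in LiK 3, Il11 in LiK 2 and Ifng in LiK 1, while Il22 had 0 counts throughout.

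Of 14 receptor genes edgeR called 0, beside 5.11% of all genes called higher and 0.813% lower. An unadjusted p under 0.05 was found for 6, beside 22.4% of all genes. DESeq2 called 4 of them higher and 1 lower, beside 7.96% and 2.46%. In 4 receptor genes LiKM lay wholly above LiK, and in 1 wholly below, beside 17.8% and 11.8% of all genes. Osmr, the receptor chain for oncostatin M and the nearest of them to a call, was at 5.10, 5.79 and 4.23 CPM in LiK and at 7.52, 9.03 and 11.8 CPM in LiKM (log2 fold change 0.91, SE 0.22, edgeR adjusted p = 0.0578). Lifr, the receptor chain for LIF, was at 853, 484 and 817 CPM in LiK and at 629, 471 and 558 CPM in LiKM. Il1rap, the accessory chain of the interleukin 1 receptor, was at 171, 174 and 195 CPM in LiK and at 137, 125 and 139.9 CPM in LiKM (log2 fold change −0.43, SE 0.11). It was the 1 receptor gene wholly lower in LiKM, and its edgeR adjusted p was 0.0658. Of 24 signalling and transcription factor genes edgeR called 0, while 8 had an unadjusted p under 0.05, and DESeq2 called 4 higher and 1 lower. The shares of all genes beside these counts are those given for the receptors. The median log2 fold changes were 0.07 for the receptors and 0.24 for the signalling genes.

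Among the signalling genes, Stat3 was at 135, 123 and 104 CPM in LiK and at 134, 113 and 226 CPM in LiKM. Socs3, which STAT3 switches on and which then restrains it, was at 7.90, 16.5 and 6.53 CPM in LiK and at 7.80, 7.31 and 70.0 CPM in LiKM. Its single high value was that of LiKM 3, the library with the highest fibrinogen levels. Of the 10 acute phase protein genes, Saa2, Hp, Orm2 and Crp were also highest in LiKM 3 among the LiKM mice, and the others were not. Saa2 was at 83.7 CPM there, against 67.1 and 32.4 CPM in LiKM 1 and LiKM 2. Cebpb, a C/EBP factor of the acute phase response, was at 101, 85.5 and 117 CPM in LiK and at 114, 123 and 66.5 CPM in LiKM, and Cebpd, another, lay between 12.1 and 19.5 CPM in all 6 libraries. Cebpa, the main C/EBP factor of resting hepatocytes, was at 326, 417 and 412 CPM in LiK and at 236, 229 and 289.6 CPM in LiKM (log2 fold change −0.62, SE 0.15, edgeR adjusted p = 0.062). Its genotypes did not overlap. Hnf4a, a factor of hepatocyte identity, was at 1098, 960.2 and 660.0 CPM in LiK and at 705, 615 and 635 CPM in LiKM. Without LiKM 3, 2 genes of this list were called lower, Cebpa (edgeR adjusted p = 0.0461) and Socs2, a relative of Socs3 (edgeR adjusted p = 0.0211). That fit called 101 of all genes lower and 525 higher.

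Of 16 tested genes of proteins that take up or work with the acute phase proteins, 3 were called higher and 0 lower in LiKM, beside 5.11% and 0.813% of all genes. Hmox1, which breaks down haem, rose from 12.4, 16.7 and 13.5 to 22.9, 28.0 and 31.7 CPM (log2 fold change 0.96, SE 0.17, edgeR adjusted p = 0.0263). Fcer1g, the signalling chain of Fc receptors that can bind pentraxins, rose from 5.63, 6.90 and 6.61 to 12.9, 13.4 and 12.1 CPM (log2 fold change 1.00, SE 0.14, edgeR adjusted p = 0.0175). Fcgr1, one of those receptors, rose from 2.22, 3.22 and 2.71 to 5.40, 6.08 and 4.82 CPM (log2 fold change 1.00, SE 0.21, edgeR adjusted p = 0.0417). In each of them every LiKM library lay above every LiK library. Without LiK 1, LiK 2 or LiKM 2, where 26, 18 and 44 of all genes were called higher, 0 of this list were called. The call of Fcgr1 was lost whichever library was left out. Fcer1g was also listed among the macrophage markers, so its call counts in both lists. Cd163, the macrophage receptor for haptoglobin bound to haemoglobin, was at 10.9, 18.1 and 11.3 CPM in LiK and at 12.6, 8.53 and 6.56 CPM in LiKM and was not called.

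Markers of other cells that can make some of these proteins were also summed in each library. LiK 1 and LiK 2 were not together the highest libraries for any of these sums, although several single neutrophil markers were highest in LiK 1. Of 16 neutrophil markers 5 were tested, and 0 were called by edgeR or DESeq2 or had an unadjusted p under 0.05. Over all genes edgeR called 5.11% higher and 0.813% lower, so 0 calls among 5 genes says little. The summed level of all 16 was 22.5, 12.6 and 6.36 CPM in LiK and 12.6, 13.3 and 24.7 CPM in LiKM. LiK 1, highest for Lcn2 and Hp, and LiK 3, lowest for both, were also the highest and lowest LiK libraries here, but LiKM 3 exceeded both. Prtn3, for a granule protease, was at 6.45, 4.68 and 0.534 CPM in LiK and at 5.78, 3.77 and 4.05 CPM in LiKM, and Csf3r, a receptor of neutrophils, was at 2.75, 4.13 and 3.32 CPM in LiK and at 3.62, 4.67 and 7.71 CPM in LiKM. The granule gene Ngp counted 47, 3 and 4 in the LiK libraries and 7, 8 and 15 in the LiKM libraries, while Ly6g counted 1, 0 and 0 and 0, 0 and 2. Like Ngp and Prtn3, Camp, Ltf, Mpo, Elane and Fcnb were highest in LiK 1. The other listed neutrophil markers were highest in LiKM 3, except Stfa2l1 in LiKM 2. The part of neutrophils in the Lcn2 and Hp levels was not tested.

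Of 14 macrophage and Kupffer cell markers, 8 were called higher in LiKM and 0 lower, beside 5.11% and 0.813% of all genes. Their summed level was 379, 456 and 359.5 CPM in LiK and 725, 753 and 566 CPM in LiKM, without overlap, while Saa3, which macrophages can make, had the lower mean in LiKM. Tyrobp, a myeloid signalling adaptor, rose by 0.93 (SE 0.13), the protease gene Ctss by 1.19 (SE 0.16) and the lysozyme gene Lyz2 by 0.63 (SE 0.10) on the log2 scale. The other calls were Cd68, C1qa, C1qb, C1qc and Fcer1g. Clec4f, Timd4, Marco, Vsig4, Cd5l and Csf1r were not called, with log2 fold changes between 0.48 (Clec4f) and 2.01 (Marco). A further listed marker, Adgre1, had no row in the count table. The 8 calls became 0 without LiK 1 or LiKM 2, 1 without LiK 2, 3 without LiK 3 and 4 without LiKM 1. Over all genes, the calls higher fell from 692 to 26 without LiK 1, 44 without LiKM 2 and 18 without LiK 2. They were 264 without LiK 3 and 308 without LiKM 1. The median log2 fold change of the list stayed between 0.72 and 0.95 in these fits. The part of macrophages in the Saa3 levels was not tested.

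Of 8 adipocyte markers 3 were tested, and 0 were called by edgeR or DESeq2 or had an unadjusted p under 0.05. With edgeR calling 5.11% of all genes higher and 0.813% lower, 0 calls among 3 genes says little. Adipoq, a defining gene of fat cells, had 0 counts in all 6 libraries, while Fabp4 lay between 7.86 and 10.9 CPM and Cidec between 2.18 and 5.64 CPM. The summed level of the 8 was 16.3, 17.2 and 17.0 CPM in LiK and 15.8, 12.4 and 16.3 CPM in LiKM. Of 12 hepatocyte markers 0 were called by edgeR, beside the same shares of all genes. At an unadjusted p under 0.05 there were 4, beside 22.4% of all genes, and DESeq2 called 1 lower, beside 2.46%. Of the 12, 10 had a negative log2 fold change, the median was −0.29, and 5 lay wholly below LiK in LiKM, beside 11.8% of all genes. Their summed level was 139926, 122299 and 147351 CPM in LiK and 143631, 126159.7 and 131082 CPM in LiKM, with LiK 3 the highest library, and most of it was Alb. Apoa1, for the main protein of high-density lipoprotein, was at 10318, 9437 and 11730.1 CPM in LiK and at 8804, 8153 and 8679 CPM in LiKM and also highest in LiK 3. LiK 3 was the lowest of the 6 libraries for 0 of the 12, and the lowest LiK library for Hnf4a, Cps1 and Tat. The part of hepatocyte content in the levels of the 10 genes was not tested.

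Genes outside the 10 with a pattern most like that of Saa1 and Saa2 were sought by the root mean square difference of centred log2 CPM over the 6 libraries, restricted to named genes whose log2 CPM averaged 2 or more. Among the 10 genes, that difference was 0.87 for Saa3, 1.19 for Orm2, 1.55 for Lcn2 and 3.01 for Crp. The nearest 5 others were Capn8 (1.56), Scara5 (1.76), Serpina4-ps1 (2.01), Zbtb16 (2.12) and Fam107a (2.12). Capn8, a calpain protease gene, was at 14.4, 9.11 and 1.11 CPM in LiK and at 2.35, 0.499 and 0.820 CPM in LiKM. Scara5, for a scavenger receptor that can take up ferritin, was at 78.0, 72.5 and 8.58 CPM in LiK and at 31.6, 3.90 and 18.2 CPM in LiKM. That LiK 1 and LiK 2 were highest in these genes follows from how they were chosen. LiK 3 was the lowest library for Zbtb16 but not for the other 4.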

How the data were processed

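Liver RNA of 6 mice was sequenced with 1 library per mouse. The submitters' processing notes name featureCounts and FastQC 0.11.7. The sources used here do not give the aligner, build, annotation or strand setting. Raw counts were deposited with 1 column per mouse and used as such. Of 26608 symbols, 6335 had no count.

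The default filter of edgeR 4.0.16 (R 4.3.3) kept 13537 genes. TMM factors for the library sizes ran from 0.903 to 1.108, and the genotypes were compared by edgeR's quasi-likelihood test without a block, with Benjamini-Hochberg adjustment over all genes tested and calls under 0.05. The test was checked on data with known answers. Alternatives were other scalings, DESeq2 1.42.0, other filters, the replicate number as a block, near-identical copies summed and each library left out. Counts without strand information cannot separate overlapping genes.

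The members and lists were chosen with earlier results of these data known. Named from each list were up to 4 called genes with the smallest adjusted p or, with none, the 2 with the highest average level, plus Il6, Il1b, Tnf, Stat3, Socs3, Cebpb and Cebpd. Other genes were named after their values were seen. Each title gives a mouse its own code, and p-values set the genotype difference against the spread between these mice. The edgeR test takes that spread as the same for both genotypes and draws it toward that of other genes. The SE printed with a log2 fold change is its absolute value divided by the square root of the test's F statistic. An allele that both genotypes share is not reported here.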

Additional observations from a re-analysis of the deposited data

How the results depend on the processing

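The edgeR test called 692 genes higher and 110 lower, 0 of the 10 acute phase protein genes, 2 of the other positive acute phase genes and 12 genes over the other lists pooled. Scaling by library totals gave 1039 higher and 63 lower, with 19 over the pooled lists, and moved the median log2 fold change of all genes to 0.155. Crp then stood at 0.008 in place of −0.15, the 1 direction that turned among 146 log2 fold changes of the 10 genes, of which 134 kept direction and side of the threshold and 11 passed it. DESeq2 called 1181 higher and 365 lower, 3 of the 10 genes and 28 over the pooled lists. Without the filter on low counts, 1 of the 10 was called (Saa3, −4.15, edgeR adjusted p = 0.0481). Leaving out each library gave 18 to 525 higher, 1 to 101 lower, 0 to 7 of the 10 genes, 0 to 3 other positive genes and 1 to 12 over the pooled lists. With Saa1 and Saa2 summed the log2 fold change was −4.97 (edgeR adjusted p = 0.111), and with Orm1, Orm2 and Orm3 summed −0.84 (edgeR adjusted p = 0.241). The replicate block gave 669 higher, 166 lower, 0 of the 10 genes, 3 other positive genes and 16 over the pooled lists. Same-numbered mice had correlations of 0.267, 0 and 0.127 in their deviations from the group means. LiK 1 and LiK 3 correlated best with the LiKM mouse of the same number, and LiK 2 with LiKM 3 (0.046). The labels state no pairing, and these correlations do not settle whether there was one. The causes of these changes were not tested.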
